A study of Mus musculus with 6 samples.

Results

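The cytosolic translation initiation factors were examined in mouse L929 fibroblasts, a cell line long used in assays of killing by tumour necrosis factor. Members were the protein-coding genes of the count table whose symbol begins with Eif and a digit between 1 and 6, apart from the Eif2ak kinases, which gave 51 of 54532 listed genes. Treated cells, 3 libraries, had received TNF-α at 10 ng/ml together with actinomycin D at 1 µg/ml for 12 hours, and control cells, 3 libraries, are labelled as controls. The cytokine TNF-α drives inflammation, and actinomycin D intercalates into DNA and stops transcription. All cells were wild-type L929, grown in DMEM with fetal bovine serum. No group received either agent alone, so each difference belongs to the combination. The labels carry the treatment text on the control samples as well, and the groups follow the titles and the treatment field. Whether the 3 libraries of a group are from separate cultures is not given, so the p-values speak for the spread among libraries, possibly technical, and no further.

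Initiation begins when eIF2, bound to GTP, brings the initiator tRNA to the small ribosomal subunit together with eIF1, eIF1A, eIF5 and the many-subunit factor eIF3. The cap of the mRNA is bound by eIF4E, which with the scaffold eIF4G and the helicase eIF4A forms eIF4F, and the 4E-binding proteins compete with the scaffold for eIF4E. The guanine exchange factor eIF2B recharges eIF2, and eIF5B joins the large subunit at the start codon. Growing fibroblasts make these factors in quantity, and the 4E-binding proteins and eIF2 are known points of control under starvation and stress.

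Library totals ran from 16448477 to 17705511 counts in treated and from 16056207 to 18036322 counts in control libraries. Values are CPM, each gene's counts relative to the library total, scaled by TMM, a method that assumes most genes do not change. The factors were 0.640 to 0.797 in treated and 1.34 to 1.53 in control libraries. A CPM is a share of the RNA sampled, and in bulk samples fewer cells of a type and less RNA per cell cannot be told apart. Fibroblast markers were present, with a summed level of 20295 to 23077 CPM in treated and 6293 to 8144 CPM in control libraries. In that list 6 of 8 tested genes were called higher and 2 lower, and Thy1, Lum and Dcn were at or near 0. Macrophage markers summed to 43.8 to 55.3 CPM in treated and 3.88 to 4.80 CPM in control libraries, through Cd68 and Lyz2, while Ptprc, Adgre1 and Itgam were at 0 in treated libraries. Epithelial and endothelial markers summed to less than 1 CPM in every library. The part of these marker shifts in the results below was not tested.

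The family split in both directions. Of 51 members 47 passed the filter on low counts, and of these 14 were called higher and 13 lower in treated than in control cells on the TMM scale, while 20 were not called. A call is an adjusted p under 0.05 from edgeR's quasi-likelihood test over all 13290 genes tested. Treatment moved most genes, 74.8% in either direction, and 34.6% of all genes tested were called higher and 40.2% lower, so the members' shares of 29.8% higher and 27.7% lower were no larger than the background. The median log2 fold change was 0.01 over the tested members and −0.18 over all tested genes. The members that passed all had at least 1297 counts over the 6 libraries. The remaining 4 were at or close to 0: Eif2s3y, the Y-linked eIF2 gamma gene, and Eif5a2 had no count, Eif4e1b had 0 counts in treated and 2 in control libraries, and Eif4ebp3 had 1 and 14.

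Direction depended on what was held equal between the groups. With library size alone as the scale, 7 members were called higher (Eif1, Eif2d, Eif3f, Eif3h, Eif3i, Eif3k and Eif5a) and 35 lower, against 17.1% and 59.6% of all tested genes. A ribosomal scale, on which the summed mRNAs of ribosomal proteins are held equal in all libraries, gave 0 members higher and 46 lower, against 1.89% and 82.3% of all genes. A mitochondrial scale, which does the same with transcripts of the mitochondrial genome, gave 0 higher and 40 lower, against 2.51% and 77.8%. All 14 rises turned negative on both the ribosomal and the mitochondrial scale, though not all were called lower there. On the mitochondrial scale 7 of them were not called (Eif1, Eif2d, Eif3f, Eif3h, Eif3i, Eif3k and Eif5a), and on the ribosomal scale Eif3k was not called. Median-ratio factors gave 16 higher and 12 lower, against 36.6% and 38.2% of all genes, and upper-quartile factors gave 17 and 12, against 37.7% and 36.8%. The 13 falls were negative under each of the 5 other scalings, and the call was lost only for Eif3e, with median-ratio and upper-quartile factors. The scales shifted the median of all genes by −1.04 for library size, −2.38 for the ribosomal and −2.15 for the mitochondrial scale, while the gap between the members' median and that of all genes stayed between 0.17 and 0.19. Rises below are therefore changes relative to the typical gene, and what follows on differences between members, ratios within a library included, does not rest on the scale, though gene length bears on it, as given below.

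**Figure D1:**
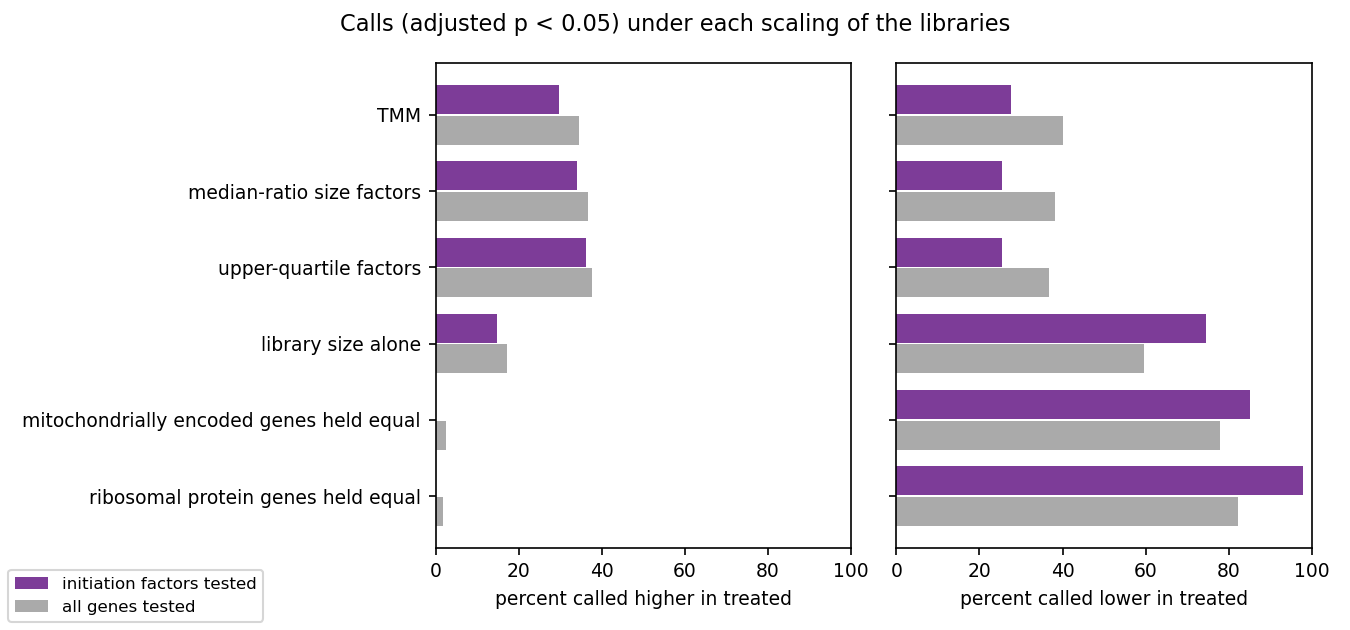
Percent of tested initiation factor genes (purple) and of all tested genes (grey) called higher (left) or lower (right) in treated than in control cells, under 6 scalings of the libraries. On the left the members lie near the background: 14.9% higher against 17.1% of all genes with library size alone, and 0% against 1.89% on the ribosomal scale. On the right they depart from it in both directions. Members called lower were 74.5% against 59.6% of all genes with library size alone, 97.9% against 82.3% on the ribosomal and 85.1% against 77.8% on the mitochondrial scale. With TMM they were 27.7% against 40.2%, and they were also below the background with median-ratio and upper-quartile factors.

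**Figure D2:**
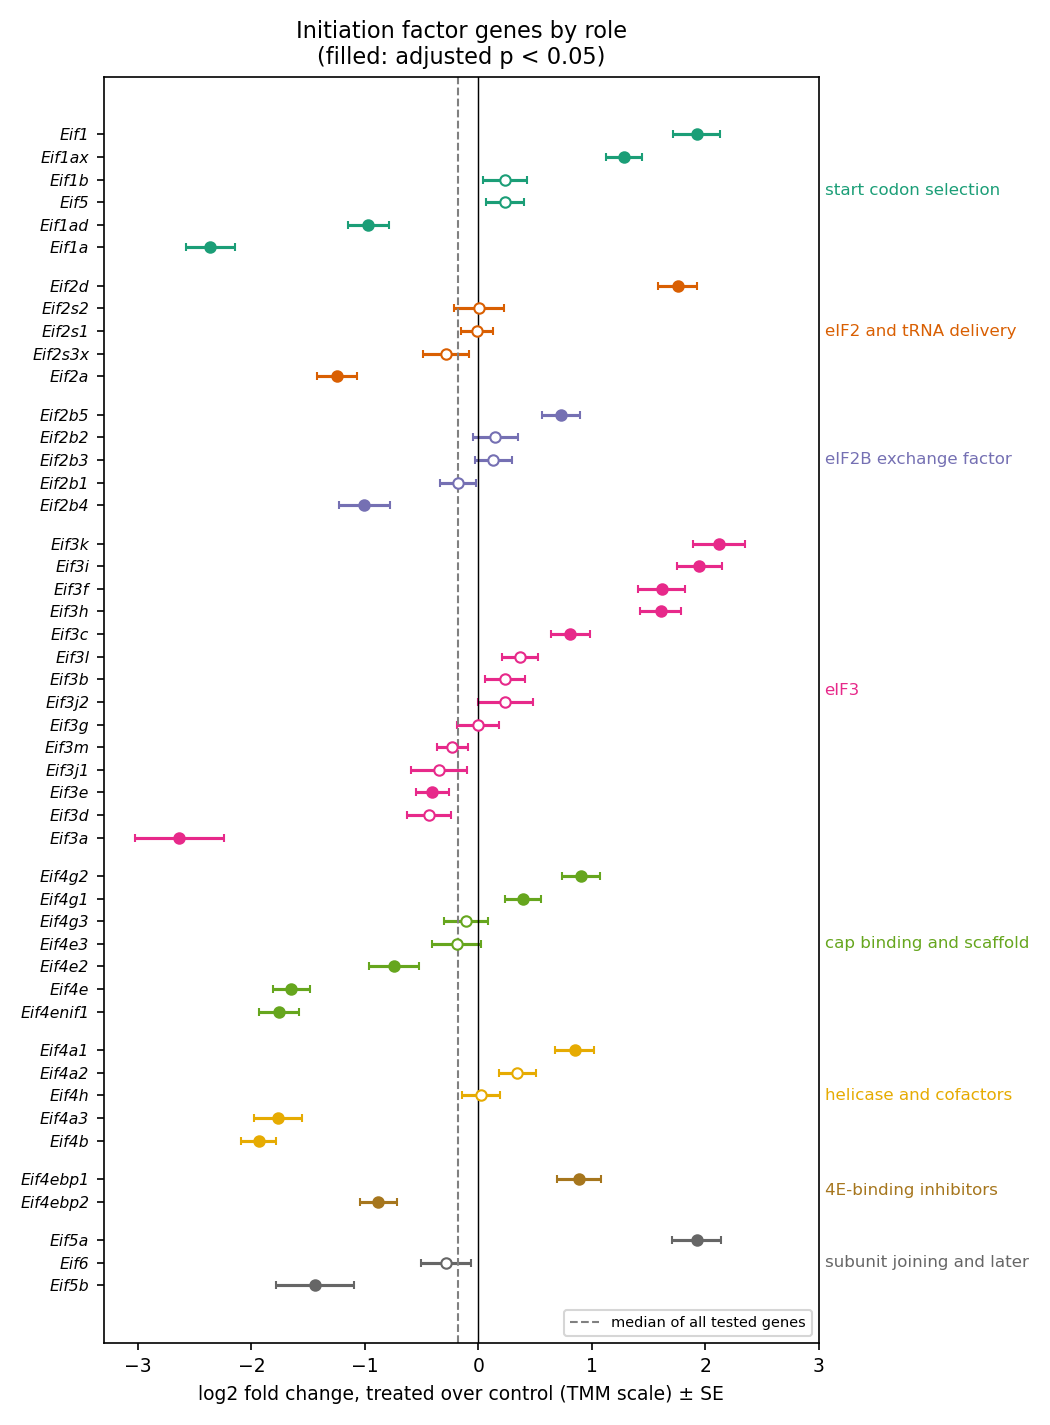
Log2 fold change of each tested member, treated over control, with its standard error, grouped by role; filled points passed the adjusted p threshold and the dashed line is the median of all genes, −0.18. Every role with 5 or more tested members holds both a rise and a fall on the TMM scale, from Eif3k at 2.12 to Eif3a at −2.63; all the rises turn negative on the ribosomal and mitochondrial scales.

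Promoter sequence was examined for 1 motif, as a description. The letters CACGTG, the core of the E-box that MYC with MAX and related proteins can bind, read the same on both strands and were searched in the 250 bases before each start listed by RefSeq on build GRCm38.p6. They were present in 9 of 39 members with a listed promoter (23.1%), against 1854 of 27025 genes (6.86%). By promoters, this was 11 of 51 (21.6%) for members and 1978 of 32851 (6.02%) for all. Among members called higher 5 of 10 had the letters (Eif3f, Eif3k, Eif4a1, Eif4g1 and Eif5a), among those called lower 1 of 11 (Eif4e), and among those not called 2 of 16 (Eif1b and Eif4h). Over all tested genes with a listed promoter, the letters were in 296 of 3112 called higher (9.51%), 421 of 4098 called lower (10.3%) and 235 of 2259 not called (10.4%). The 6.86% covers untested genes as well, so these tested shares are the nearer background for the members. These shares are a description of the letters in these windows and not of binding. Shown here are the windows of 4 of the members called higher, outside annotated exons, with the letters in capitals. They lie on GRCm38.p6 at chr7:108934327-108934372 (plus strand) for Eif3f, chr7:28981907-28981952 (minus) for Eif3k, chr11:69672587-69672632 (minus) for Eif4a1 and chr16:20672653-20672698 (plus) for Eif4g1.
Eif3f: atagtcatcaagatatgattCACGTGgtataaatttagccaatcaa
Eif3k: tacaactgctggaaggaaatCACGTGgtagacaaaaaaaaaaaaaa
Eif4a1: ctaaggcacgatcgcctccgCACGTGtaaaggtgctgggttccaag
Eif4g1: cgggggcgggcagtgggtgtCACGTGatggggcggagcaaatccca
The first base of the motif lies 68, 44, 189 and 54 bases before the start in these 4 genes, in the order of the lines. All 4 windows belong to rises on the TMM scale that are described by role below. The other starts of the same genes are not shown.

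Among the genes of start codon selection, Eif1 and Eif1ax rose and Eif1a and Eif1ad fell on the TMM scale, while Eif1b and Eif5 were not called. The rises of Eif1 and Eif1ax turned negative on the ribosomal and mitochondrial scales. After the length correction described below Eif1b was called lower (−0.89) and Eif5 higher (1.10). Eif1, which encodes the factor that guards against initiation at the wrong codon, lies at chr11:100319885-100322096 (plus strand, GRCm38). It had 1397, 1886 and 1212 CPM in treated libraries, against 452, 354.7 and 377 CPM in control libraries. The groups stood well apart, by a log2 fold change of 1.92 ± 0.21 (SE; adjusted p = 9.21e-06, edgeR). Its close copy Eif1b, with 81.1% of its coding bases identical to those of Eif1, had 25.7, 25.7 and 19.0 CPM in treated and 22.1, 18.7 and 18.9 CPM in control libraries, and the groups overlapped (0.24 ± 0.19, adjusted p = 0.29).

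The eIF1A genes moved in opposite directions on the TMM scale. eIF1A helps the initiator tRNA settle in the ribosome, and it is encoded by the X-linked Eif1ax at chrX:159372178-159389928 (plus strand) and by Eif1a on an autosome, with 85.6% of aligned coding bases identical. Eif1ax had 308, 285 and 229 CPM in treated libraries, against 116, 109 and 113 CPM in control libraries (1.28 ± 0.16, adjusted p = 2.28e-05, edgeR). Eif1a had 19.0, 19.1 and 31.4 CPM in treated libraries, against 109, 131 and 117 CPM in control libraries (−2.36 ± 0.22, adjusted p = 3.13e-06, edgeR). Treated replicate 3 lay nearest to the controls for both genes. Eif1ad, which encodes a protein with an eIF1A-like domain, averaged 31.4 ± 4.1 CPM in treated and 61.4 ± 9.2 CPM in control libraries (SD, n = 3 each; −0.97 ± 0.18, adjusted p = 0.000503, edgeR). Eif5, which triggers GTP hydrolysis by eIF2, had 234, 256 and 318 CPM in treated and 204, 252 and 231 CPM in control libraries. Its groups overlapped, and it was not called on the TMM scale (0.23 ± 0.17, adjusted p = 0.218, edgeR). With the length correction described below Eif5 was called higher (1.10, adjusted p = 0.000146, edgeR).

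The 3 subunits of eIF2 itself were not called on the TMM scale, though after the length correction described below Eif2s1 (0.55, adjusted p = 0.00514, edgeR) and Eif2s2 (0.86, adjusted p = 0.00507) were called higher. The eIF2 alpha gene Eif2s1, whose product is the site of stress phosphorylation, had 220, 183 and 194 CPM in treated and 192, 203 and 208 CPM in control libraries. Eif2s2, the beta subunit, had 173, 218 and 266 CPM in treated and 160, 273 and 222 CPM in control libraries. Their log2 fold changes were −0.01 ± 0.14 and 0.01 ± 0.22, and their groups overlapped. Eif2s3x, the gamma subunit, had 71.3, 57.9 and 100.4 CPM in treated and 82.7, 94.4 and 102 CPM in control libraries. Its change was −0.28 ± 0.20 (adjusted p = 0.225, edgeR), and treated replicate 3 decided the outcome: without it the gene was called lower, at −0.57 with an adjusted p of 0.0136. With no filter on low counts it was also called lower (−0.44, adjusted p = 0.0403).

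The other carriers of tRNA to the ribosome went separate ways. Eif2d, at chr1:131153181-131187658 (plus strand), encodes a factor that can deliver tRNA without GTP and takes part in ribosome recycling. It had 121, 117 and 92.0 CPM in treated libraries, against 37.4, 29.6 and 30.9 CPM in control libraries (1.75 ± 0.17, adjusted p = 4.88e-06, edgeR). Eif2a, which encodes a single-chain protein separate from eIF2, had 21.3, 25.6 and 27.1 CPM in treated libraries, against 51.3, 66.4 and 58.0 CPM in control libraries (−1.25 ± 0.18, adjusted p = 7.39e-05, edgeR). Neither pair of groups overlapped. The Eif2d rise turned negative on the ribosomal and mitochondrial scales. Eif2a overlaps Serp1 on the opposite strand, which averaged 254 CPM in treated and 366 CPM in control libraries, and Eif2d overlaps Rassf5, at 1.16 and 8.28 CPM.

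Within eIF2B the catalytic and a regulatory subunit moved in opposite directions. Eif2b5, the catalytic epsilon subunit, had 143, 133 and 108 CPM in treated libraries, against 89.4, 68.3 and 74.3 CPM in control libraries. Eif2b4, the regulatory delta subunit, had 17.2, 16.4 and 11.4 CPM in treated libraries, against 35.6, 24.8 and 29.9 CPM in control libraries. The log2 fold change was 0.72 ± 0.17 for Eif2b5 (adjusted p = 0.00221) and −1.004 ± 0.222 for Eif2b4 (adjusted p = 0.00168, edgeR), and that of Eif2b5 was negative with library size alone and on the ribosomal and mitochondrial scales. Eif2b4 overlaps Snx17 on the opposite strand, which averaged 228 CPM in treated and 94.5 CPM in control libraries. The remaining subunits Eif2b1, Eif2b2 and Eif2b3 were not called, at −0.18, 0.15 and 0.13. With the length correction described below Eif2b1 was called lower (−0.47) and Eif2b3 higher (0.96). Across the 5 subunits, the SD of log2 counts per kilobase averaged 1.21 ± 0.030 in treated and 0.742 ± 0.021 in control libraries (SD, n = 3 each).

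The 14 genes of eIF3, the initiation factor with the most subunits, moved in both directions. On the TMM scale 5 were called higher (Eif3c, Eif3f, Eif3h, Eif3i and Eif3k), 2 lower (Eif3a and Eif3e) and 7 not called. These are 35.7% higher and 14.3% lower, against 34.6% and 40.2% of all tested genes, and the 5 rises turned negative on the ribosomal and mitochondrial scales. The lowest and highest log2 fold changes lay 4.75 apart. Eif3k, which encodes a peripheral subunit and lies at chr7:28971372-28981864 (minus strand), had 337, 325 and 206 CPM in treated libraries, against 80.8, 52.5 and 66.4 CPM in control libraries. That is 2.12 ± 0.23 on the log2 scale (adjusted p = 1.05e-05, edgeR), with no overlap. Per kilobase it ranked 12 among the 47 tested members in treated cells and 30 in control cells. Its promoter window and that of Eif3f were given above.

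Among the eIF3 rises, Eif3i, a WD-repeat subunit of the module with Eif3b and Eif3g, had 881, 867 and 621 CPM in treated libraries, against 237, 174 and 204 CPM in control libraries (1.95 ± 0.20, adjusted p = 5.81e-06, edgeR). Its partners Eif3b and Eif3g were not called, at 0.24 and −0.00, though Eif3g was called lower after the length correction described below (−0.58). Eif3f and Eif3h encode the subunits with an MPN fold. Eif3f had 857, 1004 and 663 CPM in treated libraries, against 335, 228 and 261 CPM in control libraries (1.62 ± 0.21, adjusted p = 3.58e-05, edgeR). Eif3h had 859, 741 and 629 CPM in treated libraries, against 283, 217 and 233 CPM in control libraries (1.60 ± 0.18, adjusted p = 1.29e-05, edgeR). For both genes the lowest treated library lay well above the highest control library. Eif3c, a core scaffold subunit, had 1277, 1588 and 1511 CPM in treated libraries, against 903, 763 and 831 CPM in control libraries (0.81 ± 0.17, adjusted p = 0.00119, edgeR).

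Eif3a, which encodes the main scaffold of the complex at chr19:60761116-60790693 (minus strand), fell the most of any member on the TMM scale with all libraries. It had 33.9, 33.2 and 70.1 CPM in treated libraries, against 152, 412 and 289 CPM in control libraries. The change was −2.63 ± 0.39 (adjusted p = 0.000129, edgeR), and both groups were wide, with highest over lowest of 2.11 in treated and 2.71 in control libraries. With the length correction described below Eif3a stood at −2.02, behind Eif1a (−2.50) and Eif4a3 (−2.28). Without control replicate 2 it stood at −2.27, against −2.29 for Eif1a. Eif3e had 291, 257 and 236 CPM in treated libraries, against 330, 354 and 354 CPM in control libraries (−0.41 ± 0.15, adjusted p = 0.0271, edgeR). The Eif3e call was lost without control replicate 2 (adjusted p = 0.0667) or control replicate 3 (0.116), with median-ratio (0.152) or upper-quartile factors (0.109), with the stricter filter (0.0505), with DESeq2 (0.13), in both FPKM fits (0.0818 and 0.081) and with protein-coding genes only (0.114), and its sign was positive, 0.45, after the length correction described below. Eif3l, the partner of Eif3k, had 325, 341 and 288 CPM in treated and 280, 215 and 246 CPM in control libraries. The Eif3l groups did not overlap, but its adjusted p of 0.054 (0.36 ± 0.16, edgeR) missed the threshold. Eif3l was called higher by DESeq2 (0.0119), limma-voom (0.0411) and both FPKM fits (0.0408 and 0.0401), with median-ratio (0.0266) and upper-quartile factors (0.0044), with the stricter filter (0.0247), with protein-coding genes only (0.0123), with the length correction (0.00775) and without treated replicate 3 (0.00753) or control replicate 1 (0.0294). Eif3d, a subunit able to bind the cap, averaged 128 ± 27 CPM in treated and 173 ± 32 CPM in control libraries, at −0.43 ± 0.20 (adjusted p = 0.0637, edgeR), and it was called lower without treated replicate 1 (0.0379) or control replicate 2 (0.0376) and with no filter (0.00283). Eif3m was −0.23, not called, though its treated libraries (90.7 to 107 CPM) all lay below the control libraries (112 to 117 CPM), and it was called lower without treated replicate 2 (−0.37, adjusted p = 0.0424). Eif3m was also called lower after the length correction (−0.51).

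Eif3j1 and Eif3j2, which encode the loosely bound j subunit, have identical coding bases over all 783 aligned, so reads from their coding parts cannot be told apart and each value is uncertain. Eif3j1 had 27.5, 18.9 and 34.8 CPM in treated and 28.4, 43.9 and 31.0 CPM in control libraries, and Eif3j2 had 18.3, 31.6 and 29.0 CPM in treated and 17.2, 24.6 and 25.3 CPM in control libraries. Their log2 fold changes were −0.35 and 0.23, with overlapping groups and neither called.

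The spread between eIF3 subunits can be measured inside each library, with no scaling between groups. The SD of log2 counts per kilobase over 14 subunits was 2.21, 2.25 and 1.92 in treated libraries, against 1.62, 1.36 and 1.45 in control libraries. Every treated value exceeded every control value. The means were 2.13 ± 0.18 and 1.48 ± 0.13 (SD, n = 3 each), a difference of 0.65, and the exact two-sided permutation test gave p = 0.1, the smallest that 3 against 3 libraries allow. The difference was 0.80 without Eif3j1 and Eif3j2 and 0.50 without Eif3a, and 0.47 over all 14 with the length trend of all genes taken out (exact permutation p = 0.1, the smallest possible). On the TMM scale, the subunit with the highest level per kilobase stood 99.3 times above the lowest in treated cells and 40.1 times in control cells. The lowest subunit in both groups was Eif3j1, whose value is uncertain, and without Eif3j1 and Eif3j2 the figures were 52.2 and 9.61 times. For the 3 subunits of eIF2 the spread was 0.552 ± 0.19 in treated and 0.397 ± 0.065 in control libraries (exact permutation p = 0.3), but with the length trend taken out they were 0.786 ± 0.17 and 0.397 ± 0.065 (exact permutation p = 0.1).

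**Figure D3:**
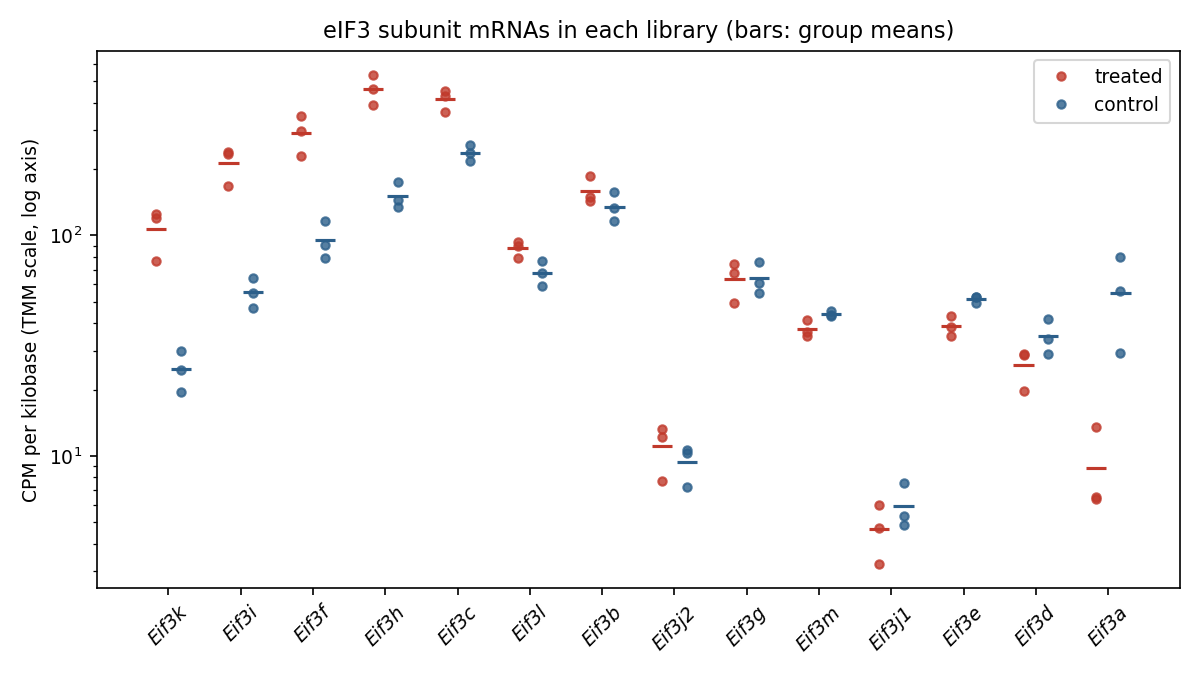
Level of each eIF3 subunit mRNA in CPM per kilobase of deposited gene length (log axis), with 1 point per library, treated left of control, and a bar at each group mean. Eif3h, Eif3i, Eif3f and Eif3k stand above their controls and Eif3a stands below on the TMM scale; on the ribosomal and mitochondrial scales the rises turn negative.

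Of the genes that bind the cap, Eif4e and Eif4e2 fell on the TMM scale. Eif4e, which encodes the cap-binding subunit of eIF4F at chr3:138526179-138559696 (plus strand), had 33.2, 39.1 and 28.7 CPM in treated libraries, against 101, 104 and 112 CPM in control libraries. The treated libraries held about 0.318 of the control level, with no overlap (−1.65 ± 0.16, adjusted p = 5.17e-06, edgeR). Eif4e2, which encodes a cap-binding competitor that represses translation, had 65.5, 50.1 and 34.1 CPM in treated libraries, against 93.4, 76.0 and 81.1 CPM in control libraries (−0.74 ± 0.22, adjusted p = 0.0102, edgeR). After the length correction described below Eif4e2 stood at 0.20 and was not called (adjusted p = 0.432, edgeR). Eif4e then stood at −0.90 and remained called. Eif4e3 was low in both groups, with 10.9, 11.6 and 9.91 CPM in treated and 14.2, 12.0 and 10.9 CPM in control libraries, and was not called (−0.19). Eif4enif1, whose product carries eIF4E into the nucleus and represses its mRNAs, had 13.5, 16.2 and 12.9 CPM in treated libraries, against 48.5, 45.4 and 49.8 CPM in control libraries (−1.76 ± 0.18, adjusted p = 5.67e-06, edgeR). It overlaps Drg1 on the opposite strand, which averaged 73.2 CPM in treated and 91.7 CPM in control libraries.

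Of the scaffold genes, Eif4g1 and Eif4g2 rose on the TMM scale and Eif4g3 was not called. Eif4g2, whose product lacks the eIF4E-binding region of its relatives and serves cap-independent initiation, had 1361, 1341 and 1651 CPM in treated libraries, against 751, 782 and 790 CPM in control libraries (0.91 ± 0.17, adjusted p = 0.000457, edgeR). Eif4g1, the main scaffold, had 812, 730 and 829 CPM in treated libraries, against 659, 550.4 and 598 CPM in control libraries. Its call was narrow, at 0.39 ± 0.16 with an adjusted p of 0.0417, and was lost without treated replicate 1 (0.0709), control replicate 2 (0.131) or control replicate 3 (0.154) and with no filter on low counts (0.341). Both rises were negative with library size alone and on the ribosomal and mitochondrial scales. Eif4g3 was not called (−0.11), with 72.4, 104 and 125 CPM in treated and 107, 114 and 105 CPM in control libraries. With the length correction described below Eif4g3 was called higher (1.09, adjusted p = 0.000455, edgeR).

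Of the helicase genes and their cofactors, Eif4a1 rose and Eif4b and Eif4a3 fell. Eif4a1, the main helicase of eIF4F, had 1771, 1723 and 1458 CPM in treated libraries, against 1009, 820.2 and 921 CPM in control libraries (0.85 ± 0.17, adjusted p = 0.000965, edgeR). Eif4b, whose product stimulates the helicase, lies at chr15:102073773-102097173 (plus strand) and had 204, 228 and 216 CPM in treated libraries, against 899, 774 and 807 CPM in control libraries. That is −1.94 ± 0.16 (adjusted p = 1.43e-06, edgeR), the lowest adjusted p of any member. Per kilobase Eif4b ranked 5 among tested members in control cells and 19 in treated cells. Eif4h, related to Eif4b in function, averaged 375 ± 37 CPM in treated and 369.7 ± 58.1 CPM in control libraries and was not called (0.02 ± 0.17). With the length correction described below Eif4h was called higher (0.705, adjusted p = 0.00312, edgeR). Eif4a2 had 254, 197 and 215 CPM in treated and 150.2, 192 and 183 CPM in control libraries. Those groups did not overlap, but the gene was not called (0.34 ± 0.16, adjusted p = 0.075, edgeR). Eif4a2 was called higher with median-ratio (0.0351) or upper-quartile factors (0.0166), the stricter filter (0.0382), DESeq2 (0.0232), protein-coding genes only (0.0182) and the length correction (0.000263). Eif4a3, which belongs to the exon junction complex and not to eIF4F, had 45.1, 39.5 and 27.2 CPM in treated libraries, against 147, 106 and 126 CPM in control libraries (−1.77 ± 0.21, adjusted p = 1.95e-05, edgeR). The Eif4a1 rise was negative with library size alone and on the ribosomal and mitochondrial scales. Its pseudogene Eif4a-ps4 held counts equal to 16.9%, 12.4% and 13.8% of those of Eif4a1 in treated libraries and 16.4%, 15.9% and 16.6% in control libraries, so some Eif4a1 reads may have been counted there.

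Of the 4E-binding inhibitors, Eif4ebp1 rose and Eif4ebp2 fell on the TMM scale, and neither was called after the length correction (adjusted p = 0.0798 and 0.402). Eif4ebp1 had 496, 462 and 336 CPM in treated libraries, against 280, 199 and 222 CPM in control libraries (0.89 ± 0.19, adjusted p = 0.0016, edgeR). Eif4ebp2 had 85.0, 113 and 107 CPM in treated libraries, against 213, 165 and 184 CPM in control libraries (−0.88 ± 0.17, adjusted p = 0.000568, edgeR). Groups did not overlap in either gene, and Eif4ebp1 was negative with library size alone and on the ribosomal and mitochondrial scales.

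Among factors of subunit joining and later steps, Eif5a carried the highest level of all. Its product, the only protein known to carry the amino acid hypusine, helps ribosomes through difficult stretches. The gene lies at chr11:69916714-69921958 (minus strand). It had 4487, 4480 and 3183 CPM in treated libraries, against 1262, 924 and 1017 CPM in control libraries (1.92 ± 0.21, adjusted p = 1.18e-05, edgeR). Per kilobase this was 1704 ± 316 CPM in treated and 449 ± 73 CPM in control libraries (SD, n = 3 each), the highest of the tested members in both groups. The rise turned negative on the ribosomal and mitochondrial scales. Eif5b, the joining GTPase, had 19.2, 15.3 and 24.3 CPM in treated libraries, against 29.7, 84.3 and 45.8 CPM in control libraries (−1.44 ± 0.35, adjusted p = 0.00328, edgeR). The control libraries of Eif5b ranged over 2.84 times, and without control replicate 2 the change was −0.94. The fall of Eif5b was not called after the length correction described below (−0.33, adjusted p = 0.403, edgeR). Eif5b overlaps Rev1 on the opposite strand, at 2.24 CPM in treated and 14.4 CPM in control libraries. Eif6, which keeps the large subunit from joining early, had 196, 171 and 114 CPM in treated and 237, 161 and 188 CPM in control libraries. The Eif6 groups overlapped, and it was not called (−0.29 ± 0.22).

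Paralog ratios within a library need no scaling between groups, and 9 pairs with both genes tested were compared. The Eif1ax to Eif1a ratio stood furthest apart. In log2 units of counts it was 4.01, 3.90 and 2.86 in treated libraries, against 0.09, −0.27 and −0.05 in control libraries. The difference of 3.67 is a 12.7-fold higher ratio in treated cells. Per kilobase of deposited gene length (5266 and 2879 bases) Eif1ax stood at 6.59 times Eif1a in treated and 0.517 times in control cells. Eif1ax was the more abundant of the pair in treated cells, by counts as well. In control libraries the counts of both genes were similar, so their order there rests on the deposited lengths. Which transcripts were in use was not measured. The Eif4ebp1 to Eif4ebp2 ratio was 2.54, 2.02 and 1.66 in treated libraries, against 0.39, 0.27 and 0.27 in control libraries, 3.40-fold higher in treated cells, but 1.48-fold with the length trend of all genes taken out, since Eif4ebp2 is the longer gene (5784 against 2196 bases). The Eif1 to Eif1b ratio was 5.76, 6.20 and 5.99 in treated libraries, against 4.35, 4.24 and 4.31 in control libraries, 3.20-fold higher. Smaller differences were seen for Eif4e to Eif4e2 (−0.87), Eif4e2 to Eif4e3 (−0.60), Eif4g1 to Eif4g3 (0.54), Eif4g1 to Eif4g2 (−0.51) and Eif4a1 to Eif4a2 (0.51). For 8 pairs the groups did not overlap and the exact two-sided permutation p was 0.1, the smallest possible, or 0.112 after Benjamini-Hochberg adjustment over the 9 pairs. How often other pairs of genes separate in this way was not measured. Since 74.8% of all tested genes were called, the count is not read as a trait of paralogs. Some pairs also share a gene, Eif4e2 or Eif4g1. The Eif3j1 to Eif3j2 ratio overlapped (p = 0.2, exact permutation test). With the length trend taken out, the difference was 4.44 for Eif1ax to Eif1a and 2.28 for Eif1 to Eif1b, and it turned to 0.66 for Eif4e2 to Eif4e3 and to 0.53 for Eif3j1 to Eif3j2. In that setting it was 0.26 for both Eif4a1 to Eif4a2 and Eif4g1 to Eif4g3.

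**Figure D4:**
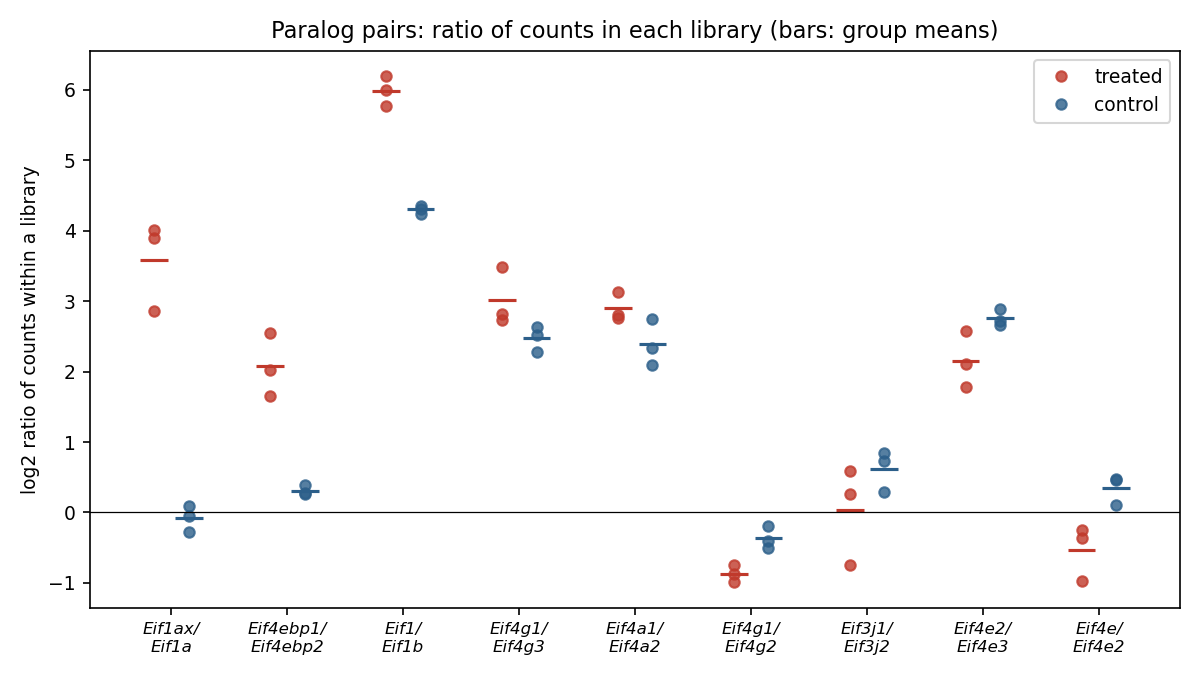
Log2 ratio of counts of paralog pairs within each library, with 1 point per library, treated left of control, and bars at group means. The Eif1ax to Eif1a ratio lies between 2.86 and 4.01 in treated and between −0.27 and 0.09 in control libraries, and the Eif3j1 to Eif3j2 points overlap.

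By their share of all counts, the members held 1.218%, 1.302% and 1.317% in treated libraries, against 1.59%, 1.60% and 1.59% in control libraries. The difference of −0.313 percentage points separated the groups fully, with an exact permutation p of 0.1, the smallest possible. Outside ribosomal protein and mitochondrially encoded genes the shares were 1.66 ± 0.048% in treated and 1.75 ± 0.0021% in control libraries, a smaller difference of −0.093. Eif5a alone supplied 23.6%, 22.7% and 19.3% of the members' counts in treated libraries, against 10.7%, 8.83% and 9.28% in control libraries (exact permutation p = 0.1). Without Eif5a the members' share was 1.00 ± 0.067% in treated and 1.44 ± 0.019% in control libraries.

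Fold change fell with gene length over all tested genes (Pearson r = −0.396 across 13290 genes) and less so among the members (r = −0.217 across 47). These genes share libraries and are not independent, and the r values are descriptions. The median deposited length was 3812 bases for members and 3949.5 for all tested genes. With the length trend of all genes taken out, 22 members were called higher and 13 lower, which is 46.8% and 27.7% of those tested, against 35.4% and 33.2% of all genes. The falls of Eif4ebp2 (−0.16), Eif4e2 (0.20) and Eif5b (−0.33) and the rise of Eif4ebp1 (0.41) were then no longer called, with adjusted p of 0.402, 0.432, 0.403 and 0.0798 in that order, edgeR. Eif3e became positive and was called higher (0.45, adjusted p = 0.019). Newly called higher were Eif5 (1.10), Eif2s1 (0.55), Eif2s2 (0.86), Eif2b3 (0.96), Eif3l (0.57), Eif4g3 (1.09), Eif4a2 (0.99) and Eif4h (0.70), and newly called lower were Eif1b (−0.89), Eif2b1 (−0.47), Eif3g (−0.58) and Eif3m (−0.51). Some calls kept their direction but moved by more than 1.5 times: Eif4g1 stood at 1.32 and Eif4g2 at 2.04, the long scaffold genes, and Eif2d at 2.69, while Eif3h stood at 0.83, Eif2b5 at 0.45, Eif4e at −0.90, Eif4enif1 at −0.95 and Eif2a at −0.48. The falls of Eif1a, Eif3a, Eif4a3 and Eif4b and the rises of Eif1, Eif3f, Eif3i, Eif3k and Eif5a remained called. The part of length in the members' differences was not tested further.

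**Figure D5:**
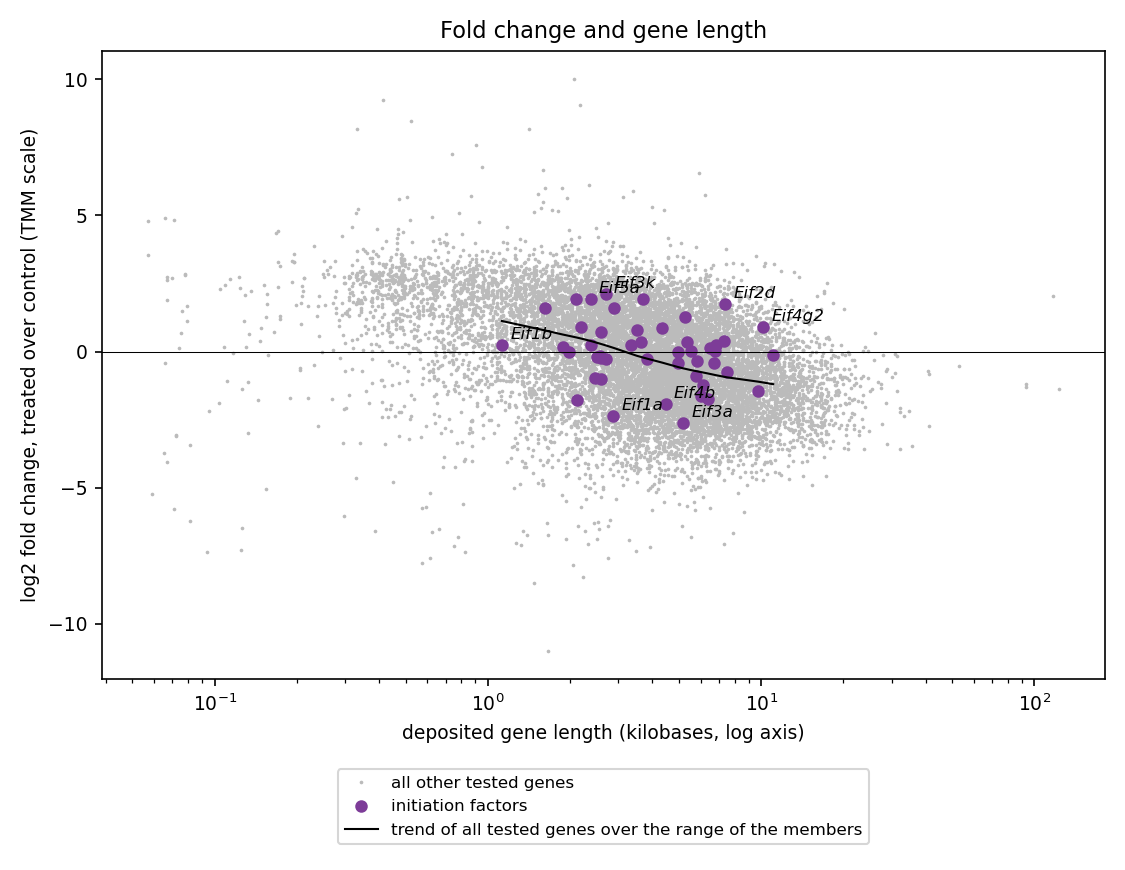
Log2 fold change, treated over control, against deposited gene length in kilobases (log axis) for initiation factor genes (purple) and all other tested genes (grey), with the trend of all tested genes as a line. Members scatter around the line, and Eif4g2, 10166 bases long, stands above it.

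Neighbouring steps of translation were measured beside the family in 61 further genes, of which 60 were tested, 24 called higher, 26 lower and 10 not called, with a median log2 fold change of −0.33. The shares of 40% higher and 43.3% lower lie near the 34.6% and 40.2% of all tested genes, which are the background for each list below. Except for Paip2, the named rises in the lists that follow turned negative on the ribosomal scale. Among 9 genes of the eIF2 alpha kinases and phosphatase 3 were higher and 5 lower. The heme-regulated kinase gene Eif2ak1 fell to 3.47 ± 0.94 CPM in treated libraries, against 35.9 ± 3.3 CPM in control libraries (−3.37), and the ER stress kinase gene Eif2ak3 fell too (−3.22). The phosphatase subunit genes Ppp1ca (2.06) and Ppp1r15a (0.93) rose. Among 14 genes of mTORC1 and MNK signalling 1 was higher (Tsc2, 1.27) and 8 lower, Larp1 (−2.42) and Rptor (−1.70) among them. Of 5 genes for poly(A) tail binding 4 were higher, with Paip2 at 2.66 and Pabpc4 at 1.11, and Paip1 was lower (−0.40).

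Of 11 genes listed as other initiation and recycling factors 5 were higher, among them Dap (1.93) and Mcts1 (1.89), and 5 lower, among them Denr (−3.36) and Abce1 (−1.99). Dap was placed in this list by choice, and no role in initiation is claimed for it. The proteins of Denr and Mcts1 act as a pair in recycling, and Denr fell to 8.75 ± 0.68 CPM in treated libraries, against 89.9 ± 5.1 CPM in control libraries, while Mcts1 averaged 89.5 ± 17.4 CPM in treated and 24.1 ± 1.8 CPM in control libraries. Of 9 tested elongation genes 7 were higher and 2 lower (77.8% and 22.2%, against 34.6% and 40.2% of all tested genes). Eef1b2 (2.34) and Dohh (1.99) rose, Eef2k (−2.16) and Eef1e1 (−2.03) fell, and Dohh with Dhps (1.37) encodes the enzymes that make hypusine on eIF5A. Of 3 termination genes Gspt2 (−1.99) and Gspt1 (−1.35) fell. Of 9 mitochondrial translation factors 4 were higher, with Tsfm at 1.01 and Tufm at 0.57, and 3 lower, with Mtrf1l at −1.65 and the initiation factor gene Mtif3 at −3.58.

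Libraries within a group differed, and for some members, Eif2s2 among them, by more than the groups did. The ratio of highest to lowest library had a median of 1.353 over tested members in treated and 1.296 in control libraries, and 31 members in treated and 42 in control libraries stayed below 1.5. Treated replicate 3 was the treated library nearest the controls for 15 of the 27 called members (55.6%), close to the 60.2% of all called genes. All treated libraries lay above all control libraries for 16 members and below for 14, against 35.9% and 42% of all tested genes. The remaining 17 overlapped.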

How the data were processed

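Counts are the whole-number counts per gene that the authors deposited, and gene length and coordinates come from the same table, per the file headers. The submitters' processing notes name, with no roles, the build GRCm38 (mm10) and the tools RSEM 1.3.1, HISAT2 2.1.0 and DESeq2 1.24.0. Strandedness and the treatment of shared reads are not given in the sources used here. The FPKM values deposited by the authors equal counts divided by gene length times 1 constant per library. Relative to scaling by library total, the constant was 1.22 to 1.64 in treated libraries and 0.635 to 0.719 in controls. The gene length, another kind of value, is in bases per the file headers.

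Members and lists were chosen with earlier results of these data known. Genes were kept by filterByExpr (13290 of 24708 with a count) and tested with edgeR 4.0.16 (TMM, glmQLFit robust, glmQLFTest; R 4.3.3) for treated against control. P-values were adjusted by Benjamini-Hochberg over all genes tested, with a threshold of 0.05. SE is the log2 fold change over the root of F. Within-library ratios used a pseudocount of 0.5 counts and an exact permutation test. All members are described; other genes of the pathway lists are named by rule, up to 2 largest rises and falls whose mean over libraries was 5 CPM or more, while Dhps was named after its value was seen. Alternatives were other scalings, filters, DESeq2 1.42.0, limma-voom and limma 3.58.1 on log2(FPKM + 1) and log2(FPKM + 0.1), a replicate block, a length offset (lowess span 0.3), a fit of protein-coding genes only and fits without each library in turn. In simulated data with the real library sizes (13013 genes), edgeR recovered 45 of 98 genes changed by 1 and 93 of 97 changed by 2 on the log2 scale, with 8 false among 146 calls. Few genes were changed there, in about equal numbers up and down, whereas 74.8% of the real genes were called. The simulation therefore checks that the code runs as intended and does not give the error rate of the real calls. Promoters are RefSeq, GRCm38.p6. Figures used matplotlib 3.10.9 in Python 3.11.15.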

Additional observations from a re-analysis of the deposited data

How the results depend on the processing

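The members' calls depended most on the scale and on gene length. With other tools, filters or gene sets 1 to 5 calls per fit changed: Eif3e lost its call and Eif3l and Eif4a2 gained one in several, as given with each gene, and with no filter Eif3j1 (−0.50, adjusted p = 0.0431, edgeR), Eif6 (−0.45, 0.0312), Eif3d and Eif2s3x were called lower and Eif4g1 was not called. Eif3b was called higher with upper-quartile factors (0.40, 0.0363). On the TMM scale 14 members were called higher and 13 lower. The numbers were 7 and 35 with library size alone, 0 and 46 on the ribosomal scale, and 0 and 40 on the mitochondrial scale. With the gene length offset 22 were called higher (46.8%, against 35.4% of all genes), and likewise 22 with the replicate block and that offset together (46.8%, against 34.8%). Members called on the TMM scale kept their sign with the median-ratio or upper-quartile scale, DESeq2, limma-voom and either FPKM fit. They also kept it with another filter, protein-coding genes only, the replicate block alone, or any library left out. Some uncalled members with small changes did change sign in these fits. Among them were Eif2s1 (from −0.01 to 0.11 with median-ratio factors) and Eif4g3 (from −0.11 to 0.05 with upper-quartile factors). Another was Eif2s2 (from 0.01 to −0.08 without treated replicate 2).

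On the ribosomal scale the log2 fold change turned negative for Eif5a (−0.49), Eif3c (−1.56), Eif4g2 (−1.46), Eif4a1 (−1.56), Eif1 (−0.49), Eif4g1 (−1.98), Eif3f (−0.79), Eif3b (−2.16), Eif3h (−0.81), Eif3i (−0.47), Eif4h (−2.37), Eif4ebp1 (−1.53), Eif5 (−2.14), Eif3l (−2.03), Eif2s2 (−2.38), Eif4a2 (−2.08), Eif1ax (−1.14), Eif3k (−0.31), Eif2b5 (−1.68), Eif2d (−0.66), Eif2b3 (−2.28), Eif2b2 (−2.26), Eif3j2 (−2.15) and Eif1b (−2.19). On the mitochondrial scale the same 24 were negative, at −0.25 for Eif5a, −1.36 for Eif3c, −1.25 for Eif4g2, −1.32 for Eif4a1, −0.24 for Eif1, −1.78 for Eif4g1, −0.56 for Eif3f, −1.94 for Eif3b, −0.56 for Eif3h, −0.22 for Eif3i, −2.16 for Eif4h, −1.29 for Eif4ebp1, −1.91 for Eif5, −1.81 for Eif3l, −2.11 for Eif2s2, −1.78 for Eif4a2, −0.87 for Eif1ax, −0.057 for Eif3k, −1.45 for Eif2b5, −0.41 for Eif2d, −2.03 for Eif2b3, −2.02 for Eif2b2, −1.89 for Eif3j2 and −1.92 for Eif1b. With library size alone 16 were negative: Eif3c (−0.22), Eif4g2 (−0.12), Eif4a1 (−0.20), Eif4g1 (−0.64), Eif3b (−0.81), Eif4h (−1.02), Eif4ebp1 (−0.17), Eif5 (−0.80), Eif3l (−0.68), Eif2s2 (−1.03), Eif4a2 (−0.71), Eif2b5 (−0.32), Eif2b3 (−0.92), Eif2b2 (−0.90), Eif3j2 (−0.80) and Eif1b (−0.82). The gene length offset changed the sign of Eif3e (0.45), Eif2s1 (0.55), Eif4g3 (1.09), Eif4e2 (0.20) and Eif1b (−0.89). It also changed the sign of Eif2b2 (−0.47), Eif3d (0.14), Eif3j1 (0.38) and Eif3j2 (−0.15), which were called neither on the TMM scale nor with the offset. With the replicate block and the offset together, Eif3e, Eif2s1, Eif4g3, Eif4e2 and Eif1b stood at 0.44, 0.55, 1.05, 0.16 and −0.90 in that order. Eif2b2 was again at −0.47 and was then called lower (adjusted p = 0.039, edgeR).

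The gap between the members' median and that of all genes was 0.18, and 0.35 both with protein-coding genes only and with the block and length offset. The members' share of counts differed by −0.093 percentage points without ribosomal protein and mitochondrially encoded genes. With 1 library left out at a time, 13 to 15 members were called higher (27.7% to 31.9%) and 12 to 14 lower (25.5% to 29.8%). Over all genes in those fits 30.8% to 34.2% were called higher and 36.5% to 42.3% lower. The gap was 0.15 to 0.33, the difference in eIF3 spread 0.59 to 0.75 and the difference in share −0.33 to −0.28. The eIF3 spread without Eif3a, the eIF3 levels without Eif3j1 and Eif3j2, the motif share by call and the ratios and spread with the length trend taken out were added after seeing the data, and with that trend out the ratio differences of Eif4e2 to Eif4e3 (0.66) and Eif3j1 to Eif3j2 (0.53) changed sign. The deviations of same-numbered libraries had r of 0.22, −0.137 and 0.029, within the −0.377 to 0.383 of libraries with unlike numbers. With 3 libraries per group these values cannot decide whether the numbers mark pairs or a shared batch. With a replicate block 13 members were called higher and 14 lower, against 33.5% and 40.7% of all genes. In that fit Eif3d gained a call (−0.44, adjusted p = 0.0241, edgeR) and Eif4g1 lost it (0.0815). The cause of these shifts was not tested. Every tested member had at least 1297 counts over the 6 libraries, and no result was repeated at another depth.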
